A study of Homo sapiens with 2 samples.

Results

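The canonical NF-kappaB pathway and its tumour necrosis factor (TNF) receptor were followed through 10 genes: the receptor TNFRSF1A, the adaptors TRADD and RIPK1, the kinase subunits IKBKB and IKBKG, the transcription factor subunits NFKB1 and RELA, and the inhibitors NFKBIA, NFKBIE and TNFAIP3. The 10 were listed by their place in the pathway and found by symbol among 58884 Ensembl gene IDs, each under 1 ID. Polyadenylated RNA had been sequenced from T24/R, an adherent epithelial line of the human urinary bladder, in 1 library for cells given DMSO, the solvent, and 1 for cells given THZ1 at 1600 nM, both over 6 h. THZ1 is a covalent inhibitor of CDK7, the kinase of the transcription factor TFIIH, that also acts on CDK12 and CDK13. With 1 library per group there is no replicate check and no p-value, and every interval below is a 95% interval for counting error alone. In bulk RNA, a gene's lower level cannot be told apart between fewer cells expressing it and less of its RNA per cell.

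In resting cells NF-kappaB dimers such as the one of RELA with the NFKB1 product p50 are held in the cytoplasm by IkappaB proteins, encoded by NFKBIA and its relatives. TNF binding to TNFRSF1A assembles TRADD and RIPK1 at the receptor, ubiquitin chains on RIPK1 recruit the IkappaB kinase made of CHUK, IKBKB and the scaffold IKBKG, and the phosphorylated IkappaB is degraded. The freed dimers enter the nucleus and activate, among other genes, their own inhibitors NFKBIA, NFKBIE and TNFAIP3, which end the response.

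The libraries held 18445831 counts in DMSO and 18313827 in THZ1. Levels are given as CPM, the counts scaled to TMM-adjusted library sizes, and ratios as the log2 of THZ1 over DMSO with 0.5 added to each count. Mitochondrially encoded mRNAs took 6.60% of the counts in DMSO and 14.9% in THZ1; the part of this difference in the results was not tested, and all ratios shift together with the scaling chosen. The 12 epithelial and urothelial markers summed to 823 and 637 counts, most of them from the keratin genes KRT18 (696 and 494) and KRT8 (77 and 100). EPCAM (0 and 3) and CDH1 (2 and 3) were near 0, and the urothelial genes UPK3A and KRT20 were at 0. The 6 leukocyte markers summed to 2 counts in DMSO and 5 in THZ1. Of the 6 fibroblast and endothelial markers, which summed to 46 and 78 counts, LUM held most (34 and 69) and PDGFRA had 0 and 1; the part of LUM-expressing cells in the results was not tested.

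After THZ1, 8 of the 10 genes were at least 2-fold lower with an interval that excludes no change, beside 23.6% of all 12457 genes with 30 or more counts in a library. None of the 10 was at least 2-fold higher, beside 7.51% of all tested genes. Among the 8852 tested genes with a mean level in the span of the 10 (2.17 to 78.6 CPM), 27.0% were lower. The receptor gene TNFRSF1A was 17.9-fold lower, NFKBIE 8.30-fold, RIPK1 6.73-fold, NFKBIA 4.53-fold, RELA 3.20-fold and NFKB1 3.18-fold. IKBKB and TNFAIP3 lay at the threshold, 2.06-fold and 2.05-fold lower, and IKBKG and TRADD were within 2-fold. All 10 genes passed the count minimum, 7 of them with 100 or more counts in a library.

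**Figure D1:**
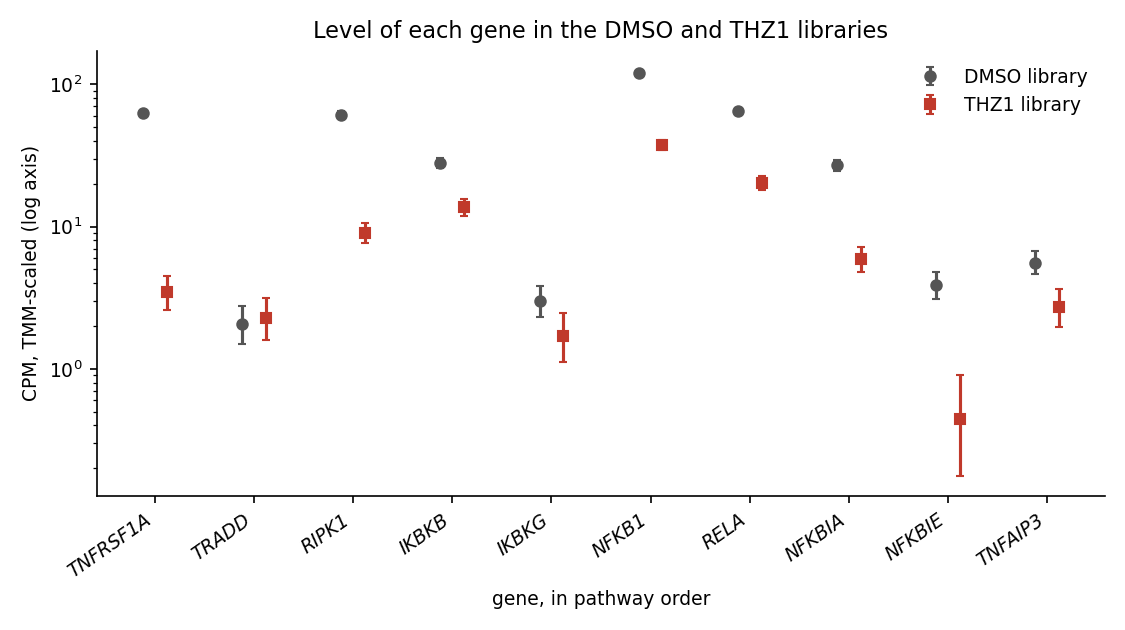
Level of each gene in CPM on a log axis, in pathway order, with the DMSO library as grey circles and the THZ1 library as red squares; bars are exact Poisson 95% intervals for counting error. The squares lie below the circles for 9 genes, with the widest gap at TNFRSF1A (62.6 and 3.46 CPM), and the intervals of the 2 libraries overlap for TRADD and IKBKG.

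The 6 genes from TNFRSF1A to NFKB1 in that order were lower by the same rule under each of 6 scalings. With TMM factors taken from the tested genes only, these 6 were the ones lower, beside 21.3% of all tested genes, and IKBKB (−0.94) and TNFAIP3 (−0.93) fell within 2-fold. With the upper quartile 6 were again lower, beside 14.1%, with total counts 9, beside 34.2%, and with the mitochondrial mRNAs as reference all 10, beside 80.3%. None was higher under these scalings, beside 9.70%, 24.4%, 2.95% and 0.706% of all tested genes. The median log2 ratio of the 10 was −1.68 and that of all tested genes −0.13, with quartiles at −0.93 and 0.45. The median of the 10 lay 1.54 below that of all genes whichever scaling was used, since scaling moves every gene by the same amount: by −0.41 for total counts, 0.54 for the upper quartile, 0.10 for TMM over tested genes and −1.59 for mitochondrial mRNAs.

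**Figure D2:**
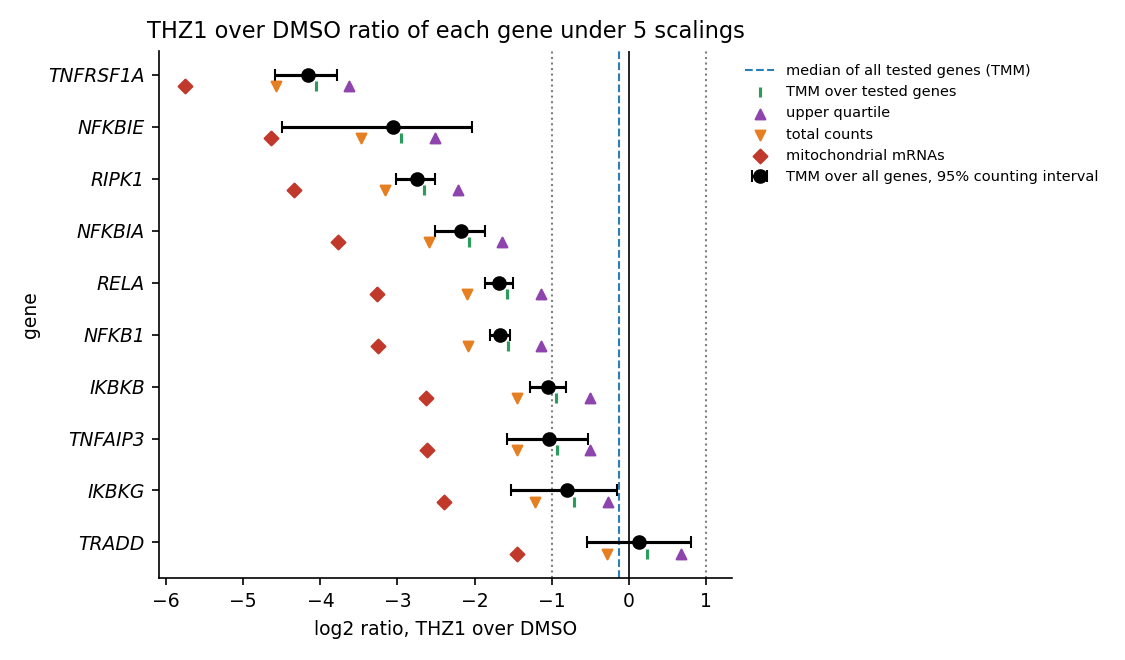
Log2 ratio of THZ1 over DMSO for each gene, with the 95% counting interval (black circles, TMM over all genes) and the same ratio under 4 other scalings (coloured marks); dotted lines mark 2-fold and the dashed line the median of all tested genes. TNFRSF1A lies furthest left at −4.16 and TRADD at 0.14, where the marks of total counts and of mitochondrial mRNAs fall on the other side of 0.

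TNFRSF1A, the main receptor for soluble TNF, had 1332 counts in DMSO and 55 in THZ1, or 62.6 CPM (59.3 to 66.0) and 3.46 CPM (2.61 to 4.51). The log2 ratio was −4.16 (−4.59 to −3.79), the 42nd lowest of the 12457 tested genes. On GRCh38 the gene (ENSG00000067182) lies on the minus strand of chromosome 12 from 6328757 to 6342114. Its neighbour LTBR, the lymphotoxin beta receptor gene of the same family, lies 32931 bases away and had 1171 and 498 counts, a log2 ratio of −0.81 (−0.96 to −0.66). TNFRSF1A and LTBR were counted almost equally in DMSO (1.14 counts of TNFRSF1A for each of LTBR) and at 0.110 to 1 in THZ1, so the receptor gene was 10.3-fold lower relative to its neighbour (log2 difference −3.36, −3.81 to −2.94). That comparison is made inside each library and does not depend on the scaling between them.

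Of 9 tested genes of the TNF and death receptor family, TNFRSF1A, FAS (488 and 171 counts, log2 ratio −1.09, −1.35 to −0.84) and TNFRSF12A (1441 and 477 counts, −1.17, −1.32 to −1.02) were lower, beside 23.6% of all tested genes, and 6 were neither. FAS encodes a death receptor and TNFRSF12A the receptor for TWEAK. Of these, TNFRSF1A was the one lower under each scaling. The TRAIL receptor genes TNFRSF10B and TNFRSF10A, both of which carry a death domain, had ratios of −0.86 (−1.01 to −0.71) and −0.90 (−1.11 to −0.69). TNFRSF10D, a decoy receptor for TRAIL without a working death domain, had a ratio of 0.83 (0.64 to 1.03). That ratio passes 2-fold with the upper quartile (1.37) and becomes −0.75 on the mitochondrial reference. TNFRSF21 was at −0.32 and TNFRSF25 at 0.35. Relative to TNFRSF10B, TNFRSF10A and FAS inside each library, TNFRSF1A was 9.93-fold, 9.68-fold and 8.48-fold lower. The second TNF receptor gene TNFRSF1B, CD40 and TNFRSF9 had 0 counts in both libraries.

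The ligand gene TNF had 0 counts in both libraries, which allows a level of up to 0.141 CPM in DMSO and 0.189 CPM in THZ1. LTB and FASLG were also at 0, and LTA had 1 count in each library. TNFSF12, which encodes TWEAK, was the ligand gene with the most counts, 144 and 203, at a ratio of 0.92 (0.60 to 1.24). That ratio passes 2-fold with TMM over tested genes (1.02) and with the upper quartile (1.45), and becomes −0.67 on the mitochondrial reference. TNFSF9, named after its values were seen, was lower with 34 and 6 counts (−1.99, −3.62 to −0.81).

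The adaptor genes went separate ways. RIPK1, which encodes the kinase and ubiquitin scaffold of the receptor complex, had 1304 counts in DMSO and 144 in THZ1, or 61.3 CPM (58.0 to 64.7) and 9.07 CPM (7.65 to 10.7). Its log2 ratio was −2.75 (−3.01 to −2.51). TRADD, the death domain adaptor that binds the receptor tail first, had 44 and 36 counts, or 2.07 CPM (1.50 to 2.78) and 2.27 CPM (1.59 to 3.14). The TRADD intervals of the 2 libraries overlap, with a ratio of 0.14 (−0.54 to 0.80) that is −0.28 with total counts. Counts of TNFRSF1A stood at 30.3 for each count of TRADD in DMSO and at 1.53 in THZ1. Relative to TRADD, RIPK1 was 7.39-fold lower. TRADD (ENSG00000102871, chromosome 16, 67154180 to 67160298) overlaps FBXL8 on the other strand by 368 bases, and since no strand setting is given, reads there cannot be assigned with certainty; FBXL8 had 27 and 8 counts. RIPK1 (ENSG00000137275) spans chromosome 6 from 3063991 to 3115187, and an antisense gene with 5 and 13 counts overlaps it by 850 bases.

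Around them, the list of receptor complex adaptors and ubiquitin ligases held 15 tested genes. With TMM 4 were lower, beside 23.6% of all tested genes, and these 4 were lower under each scaling. Besides RIPK1 these were TRAF6, the ubiquitin ligase of the interleukin-1 and Toll-like receptors (644 and 50 counts, −3.25, −3.71 to −2.85), BIRC3, which encodes the ligase cIAP2 and is itself an NF-kappaB target (6252 and 718 counts, −2.70, −2.81 to −2.59), and TRAF2, which brings the cIAP ligases to the receptor (211 and 41 counts, −1.93, −2.46 to −1.45). The other 11 were neither, among them TRADD. BIRC2, which encodes cIAP1, was among them at −0.87, and TRAF3 at −0.16. In the death branch of the receptor complex, CASP8 (−0.44, −0.57 to −0.30), its inhibitor CFLAR (−0.32, −0.44 to −0.20) and MLKL (−0.32, −0.52 to −0.11) were within 2-fold. FADD, the adaptor that joins CASP8 to the receptor complex and the gene of the 4 that was lower, had 46 and 3 counts (−3.31, −5.85 to −1.88); it is named after its value was seen.

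The catalytic subunit IKBKB (ENSG00000104365) of the IkappaB kinase had 600 counts in DMSO and 217 in THZ1, or 28.2 CPM (26.0 to 30.5) and 13.7 CPM (11.9 to 15.6). Its log2 ratio of −1.04 (−1.28 to −0.82) passes 2-fold by little, and the interval reaches into the range within 2-fold. CHUK, which encodes the sister kinase subunit IKKalpha, had 1434 and 1334 counts and a ratio of 0.32 (0.21 to 0.43), below 0 with total counts (−0.09) and with mitochondrial mRNAs (−1.27). In DMSO there were 0.418 counts of IKBKB for each of CHUK and in THZ1 0.163, a log2 difference of −1.36 (−1.62 to −1.11). The scaffold gene IKBKG had 64 and 27 counts, or 3.01 CPM (2.32 to 3.84) and 1.70 CPM (1.12 to 2.47), and its ratio of −0.81 (−1.53 to −0.15) stayed inside 2-fold, though with total counts it was called lower (−1.22). IKBKG (ENSG00000269335, chromosome X, 154541199 to 154565046) has a near-identical copy, IKBKGP1 (11 and 5 counts), so its reads can be lost or shared and its value is uncertain.

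Of 11 tested genes of the IkappaB kinase and its activating kinases, 6 were lower, beside 23.6% of all tested genes, and 5 neither. The count was 4 with TMM over tested genes and 2 with the upper quartile, and TBK1 and TAB1 were lower under each scaling. TBK1, a related kinase of innate immunity, had 1430 and 310 counts (−1.78, −1.96 to −1.60). TAB1, a partner of the activating kinase TAK1, had 305 and 61 counts (−1.89, −2.32 to −1.50), whereas MAP3K7, which encodes TAK1 itself, had 1912 and 1513 (0.09, −0.01 to 0.18). MAP3K3 stood at −1.05 and at 2.07-fold was as near the threshold as IKBKB, while TAB2 (0.47) and TAB3 (0.05) were within 2-fold.

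NFKB1, which encodes the precursor p105 of the DNA-binding subunit p50, had 2546 counts in DMSO and 596 in THZ1, or 119.6 CPM (115 to 124) and 37.5 CPM (34.6 to 40.7). RELA, which encodes the activating subunit p65, had 1380 and 321 counts, or 64.8 CPM (61.5 to 68.4) and 20.2 CPM (18.1 to 22.6). Their log2 ratios were −1.67 (−1.80 to −1.54) and −1.68 (−1.86 to −1.50). There were 0.542 counts of RELA for each of NFKB1 in DMSO and 0.539 in THZ1, a log2 difference of −0.01 (−0.23 to 0.21), so the mRNAs of the 2 subunits of the classical dimer kept their proportion to within that interval. NFKB1 (ENSG00000109320) spans chromosome 4 from 102501329 to 102617302, a span of 115974 bases with 24 exons, and RELA (ENSG00000173039) lies on chromosome 11 from 65653596 to 65663094, a span of 9499 bases with 10 exons.

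All 5 Rel family genes were tested and all 5 were lower, beside 23.6% of all tested genes; with the upper quartile it was 4, beside 14.1%. REL, which encodes c-Rel, had 243 and 46 counts (−1.97, −2.47 to −1.52), RELB 104 and 22 (−1.79, −2.55 to −1.14) and NFKB2 788 and 280 (−1.07, −1.27 to −0.87). The call for NFKB2 is lost with TMM over tested genes and with the upper quartile, and the other 4 held under each scaling. Inside the libraries REL and RELB did not differ from RELA beyond counting error, with log2 differences of −0.30 (−0.82 to 0.20) and −0.14 (−0.90 to 0.56). NFKB2 was less reduced than NFKB1 by 0.60 (0.36 to 0.84). The family median was −1.68, beside −0.13 for all tested genes.

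NFKBIA, the gene of the main inhibitor IkappaB-alpha and a target of the dimers that its protein holds back, had 573 counts in DMSO and 94 in THZ1, or 26.9 CPM (24.8 to 29.2) and 5.92 CPM (4.79 to 7.25). Its log2 ratio was −2.18 (−2.52 to −1.87). NFKBIE, the gene of IkappaB-epsilon, had 83 and 7 counts, or 3.90 CPM (3.11 to 4.83) and 0.441 CPM (0.177 to 0.909), a ratio of −3.05 (−4.50 to −2.04). The third classical inhibitor gene, NFKBIB, behaved otherwise: it had 269 and 224 counts and a ratio of 0.16 (−0.10 to 0.42), which becomes −0.25 with total counts and −1.43 with mitochondrial mRNAs. For each count of NFKBIB there were 2.13 of NFKBIA in DMSO and 0.420 in THZ1, a log2 difference of −2.34 (−2.77 to −1.93), and for NFKBIE the difference was −3.30 (−4.69 to −2.15). NFKBIA was also lower relative to RELA, by −0.50 (−0.88 to −0.14), with 0.415 and 0.293 counts for each of RELA.

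Of 6 tested genes of the IkappaB family, NFKBIE, NFKBIA and NFKBIL1 (59 and 8 counts, −2.38, −3.74 to −1.39) were lower with TMM, beside 23.6% of all tested genes, and 3 were neither. The 3 lower genes were lower under each scaling. The nuclear family member NFKBIZ, which acts as a cofactor of transcription, had 135 and 119 counts (0.24, −0.13 to 0.61), a ratio of −0.17 with total counts. NFKBID had 36 and 22 counts (−0.28, −1.12 to 0.52). NFKBIA (ENSG00000100906) lies on chromosome 14 from 35401511 to 35404749 and NFKBIE (ENSG00000146232) on chromosome 6 from 44258166 to 44265788.

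TNFAIP3 encodes A20, which edits ubiquitin chains on RIPK1 and other components and so limits the pathway. It had 119 counts in DMSO and 43 in THZ1, or 5.59 CPM (4.63 to 6.69) and 2.71 CPM (1.96 to 3.65), with a log2 ratio of −1.03 (−1.58 to −0.53). The gene (ENSG00000118503) lies on chromosome 6 from 137867188 to 137883312. It overlaps the antisense gene WAKMAR2 (15 and 9 counts) by 1046 bases. TNFAIP3 was reduced less than the other feedback inhibitor genes: relative to it, NFKBIA was 2.20-fold lower (log2 difference −1.14, −1.76 to −0.51) and NFKBIE 4.26-fold lower (−2.09, −3.56 to −0.84). The 10 tested genes that limit the pathway divided into 4 lower, 5 neither and 1 higher, beside 23.6% lower and 7.51% higher among all tested genes, and the lower ones were 2 with the upper quartile. OTUD7B (−1.90) and SPATA2 (−1.60), the partner of the deubiquitinase CYLD, were lower under each scaling, and OTULIN, which removes linear ubiquitin chains, stood at −1.30. CYLD itself had 2410 and 1818 counts (0.02, −0.07 to 0.10). TAX1BP1, an adaptor for A20, was higher (3709 and 5923 counts, 1.10, 1.04 to 1.16), a ratio that is within 2-fold with total counts (0.69) and −0.49 on the mitochondrial reference.

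The start site regions show which of these genes carry the letters of the NF-kappaB binding consensus. Windows from 250 bases before to 50 bases after the start site were taken from RefSeq on GRCh38.p14. Of the 10 genes, search results are given for 7, in 14 windows. For IKBKB, NFKBIE and TRADD no result is given, so whether they hold a match is not stated. The kappaB consensus, a motif of 10 letters searched on both strands, was found in 3 of those windows, at NFKBIA, TNFAIP3 and NFKB1, and in 11.3% of all 35116 windows. These are printed with the window of TNFRSF1A, the gene with the lowest ratio, in which no match was found. Each runs 5′ to 3′ along the gene, and capitals mark the matches.
NFKBIA, chr14:35404700-35404999, minus strand: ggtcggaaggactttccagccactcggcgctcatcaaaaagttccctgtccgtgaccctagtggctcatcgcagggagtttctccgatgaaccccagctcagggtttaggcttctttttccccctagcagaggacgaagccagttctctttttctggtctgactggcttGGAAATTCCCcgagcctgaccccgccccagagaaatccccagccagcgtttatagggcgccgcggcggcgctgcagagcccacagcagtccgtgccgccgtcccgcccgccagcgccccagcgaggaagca
TNFAIP3, chr6:137867009-137867308, plus strand: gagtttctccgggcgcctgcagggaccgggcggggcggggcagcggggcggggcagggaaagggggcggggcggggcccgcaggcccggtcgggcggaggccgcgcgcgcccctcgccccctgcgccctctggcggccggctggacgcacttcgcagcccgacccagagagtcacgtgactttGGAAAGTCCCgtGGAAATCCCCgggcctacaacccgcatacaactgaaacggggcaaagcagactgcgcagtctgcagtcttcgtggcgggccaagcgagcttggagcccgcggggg
NFKB1, chr4:102501109-102501408, plus strand: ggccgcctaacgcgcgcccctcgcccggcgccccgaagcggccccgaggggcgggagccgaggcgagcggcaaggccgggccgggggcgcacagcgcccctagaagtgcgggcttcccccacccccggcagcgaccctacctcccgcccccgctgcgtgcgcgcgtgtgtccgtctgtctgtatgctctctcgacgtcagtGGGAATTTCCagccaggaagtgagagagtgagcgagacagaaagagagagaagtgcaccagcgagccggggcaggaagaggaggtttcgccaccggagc
TNFRSF1A, chr12:6342027-6342326, minus strand: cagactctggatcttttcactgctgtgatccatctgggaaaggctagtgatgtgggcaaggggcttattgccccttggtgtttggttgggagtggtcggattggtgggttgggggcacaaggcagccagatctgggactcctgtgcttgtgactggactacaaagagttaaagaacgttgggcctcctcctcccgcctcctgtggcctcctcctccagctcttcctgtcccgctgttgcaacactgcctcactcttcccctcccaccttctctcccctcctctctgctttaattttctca

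The match in NFKBIA begins 81 bases before the start site and that in NFKB1 49 bases before it. TNFAIP3 has 2 matches, which begin 67 and 55 bases before the start site and do not overlap. Of all windows, 2.04% hold 2 or more matches. Among the 7 genes with a search result, those with a match had ratios of −2.18, −1.03 and −1.67. These lie inside the range of −4.16 to −0.81 of the 4 whose windows had none (TNFRSF1A, RIPK1, RELA and IKBKG). A match is a description of these letters only.

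Ordered by ratio, the 10 genes ran from TNFRSF1A through NFKBIE, RIPK1, NFKBIA, RELA, NFKB1, IKBKB, TNFAIP3 and IKBKG to TRADD. The 45 pairs of these genes were compared without a background of pairs of other tested genes. Of the 45, 37 differed by more than counting error, without adjustment for the number of pairs. Of the 9 pairs of neighbours in the order, 3 did: RIPK1 and NFKBIA (−0.57, −0.98 to −0.15), NFKBIA and RELA (−0.50), and NFKB1 and IKBKB (−0.63, −0.89 to −0.36). TNFRSF1A could not be placed apart from NFKBIE (−1.03, −2.23 to 0.40), whose 7 counts in THZ1 leave a wide interval, but was lower than RIPK1 by −1.42 (−1.91 to −0.95). IKBKB and TNFAIP3 differed by 0.00 (−0.57 to 0.59). At the other end TRADD stood above IKBKB by 2.26-fold and above RELA by 3.51-fold, and was not placed apart from IKBKG (−0.95, −1.94 to 0.02).

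**Figure D3:**
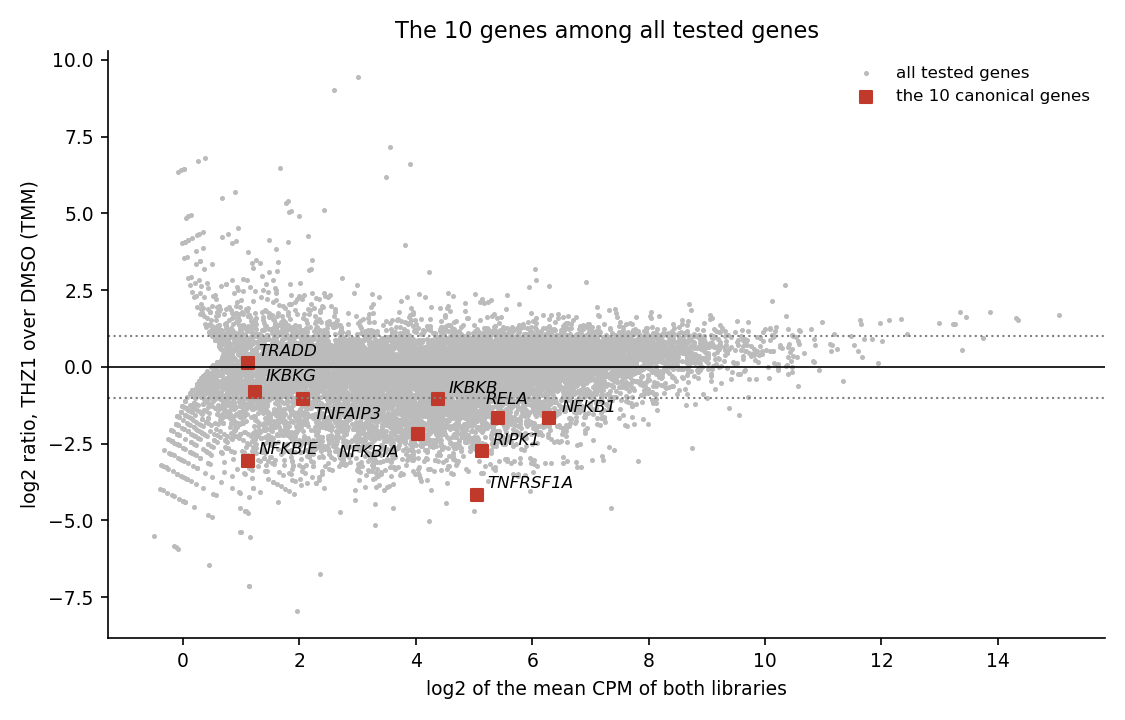
Log2 ratio of THZ1 over DMSO against the log2 mean CPM for all 12457 tested genes (grey) and the 10 genes (red squares, named); dotted lines mark 2-fold. The 10 genes lie between −4.16 and 0.14, and 8 of them lie below −0.93, the lower quartile of all tested genes.

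Per kilobase of annotated exon, the level in DMSO was highest for NFKB1 (19.1 CPM per kilobase), followed by TNFRSF1A (15.6) and RIPK1 (14.5), whose intervals overlap, then RELA (11.9) and NFKBIA (11.3), which overlap too. IKBKB (2.51) stood apart from these, and NFKBIE (1.51), TNFAIP3 (1.11), IKBKG (0.852) and TRADD (0.805) each overlapped the next. In THZ1 the levels per kilobase were 6.00 for NFKB1, 3.70 for RELA, 2.50 for NFKBIA, 2.14 for RIPK1, which overlapped NFKBIA, and 1.22 for IKBKB. TRADD (0.883) and TNFRSF1A (0.865) followed, each overlapping the one before, so the receptor gene moved from the 2nd to the 7th place of the 10. TNFAIP3 (0.536), IKBKG (0.482) and NFKBIE (0.171) were the lowest, again with overlapping neighbours. Exon length was taken over all annotated exons of a gene, so a level per kilobase is understated where long exons are not used.

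Outside the 10 genes, the TNF receptor, interleukin-1 and NF-kappaB lists, without the target list, held 68 other tested genes. They comprised 26 lower (38.2%, beside 23.6% of all tested genes), 3 higher (beside 7.51%) and 39 neither. BIRC3, RELB and NFKB2 among the lower and TRAF1 among the neither are also on the target list and are counted there again. The median log2 ratio of the 68 was −0.39, beside −1.68 for the 10 genes and −0.13 for all tested genes. The interleukin-1 and Toll-like receptor arm, which joins the pathway at TRAF6 and TAK1, had 6 lower and 5 neither of 11, beside 23.6% lower among all tested genes, and 4 of the 6 were lower under each scaling. TICAM1, the adaptor of TLR3 (128 and 6 counts, −3.88, −5.46 to −2.83), IRAK2 (268 and 27 counts, −2.86), TLR4 (115 and 13 counts, −2.67) and TIRAP (136 and 27 counts, −1.89) were the lower genes with ratios furthest from 0, while IRAK1 (0.22) and IL1R1 (−0.21) were within 2-fold. Of the 5 genes of the ubiquitin ligase that marks phosphorylated IkappaB, the scaffold CUL1 was lower (4578 and 1194 counts, −1.52, −1.61 to −1.42, and within 2-fold with the upper quartile). SKP1 (1.23) and RBX1 (1.12) were higher, but came within 2-fold with total counts (0.81 and 0.70) and below 0 on the mitochondrial reference (−0.36 and −0.47), and the substrate receptor BTRC was at −0.50.

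**Figure D4:**
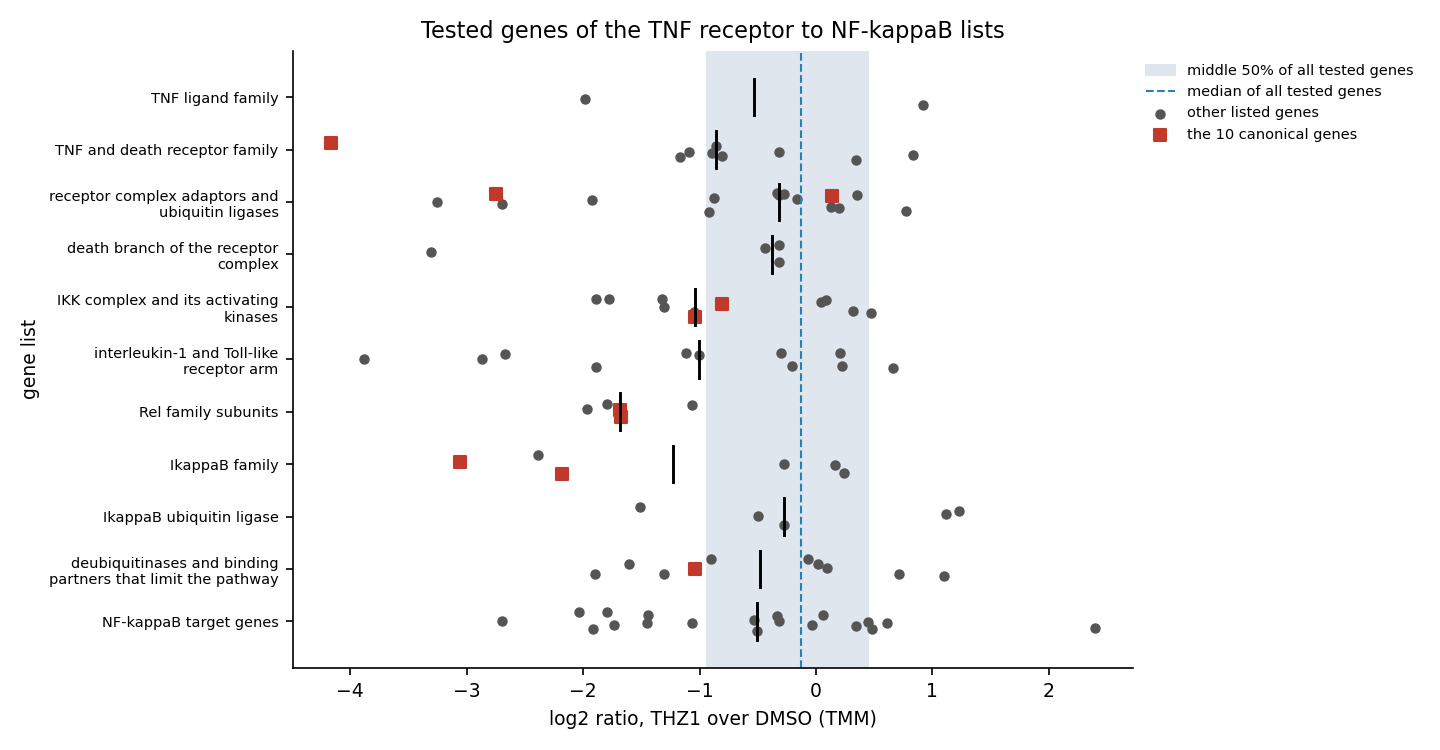
Log2 ratio of THZ1 over DMSO for the tested genes of each list (grey points; red squares are the 10 canonical genes, black bars the list medians), with the median (dashed) and the middle 50% (shaded) of all tested genes. The 5 Rel family genes lie between −1.97 and −1.07, whereas the IkappaB family runs from −3.05 to 0.24.

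Genes that NF-kappaB is known to activate were divided. The 19 tested target genes had a median of −0.51 and divided into 8 lower, 10 neither and 1 higher, beside 23.6% lower and 7.51% higher among all tested genes. With the upper quartile 5 were lower and 3 higher, and 5 were lower under each scaling. BIRC3, RELB and NFKB2 of this list are described above. Of the neutrophil chemokine genes CXCL1 was lower (2494 and 493 counts, −1.91, −2.06 to −1.78), while CXCL8, named after its value was seen, had 2538 and 1969 counts and a ratio of 0.06 (−0.03 to 0.14). The cytokine gene LIF was lower (1747 and 317 counts, −2.04, −2.22 to −1.87). JUNB, an AP-1 subunit gene that other signals also induce, was higher (160 and 628 counts, 2.39, 2.14 to 2.66) and within 2-fold on the mitochondrial reference (0.80). ICAM1, VCAM1, CCL2, CSF2 and BCL2A1 had 0 counts in both libraries, which at this depth leaves them without a comparison.

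The nearest tested gene without overlap on each side gave 20 neighbours, which lay 276 to 647739 bases away. Their median was −0.18: 15 were neither, 3 were higher and 2 lower, beside 7.51% of all tested genes higher and 23.6% lower. The lower neighbours were PHAF1, 5641 bases from TRADD (477 and 57 counts, −2.63), and KAT5, a histone acetyltransferase gene, 48902 bases from RELA (251 and 35 counts, −2.40). The higher ones with TMM over all genes were CD9 (1.09, 90486 bases from TNFRSF1A), MANBA (1.03, 13468 bases from NFKB1) and PERP (1.06, 205193 bases from TNFAIP3). Each comes within 2-fold with total counts, which moves all ratios by −0.41, and below 0 on the mitochondrial reference, which moves them by −1.59. SLC35B2, which lies 276 bases from NFKBIE, had a ratio of −0.19 (−0.44 to 0.05).

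By annotation the 10 genes had a median span of 14742 bases beside 34625 for 10857 tested coding genes (quartiles 14442 and 81581). Spans ran from 3239 bases for NFKBIA to 115974 for NFKB1. The median number of exons was 10 beside 9, and the median length of the 3′ untranslated region was 880.5 bases beside 1317. The pentamer ATTTA, the core of AU-rich elements that shorten the life of many cytokine and feedback mRNAs, had 5 copies in that region of TNFAIP3, 3 each in NFKBIA, NFKB1 and RIPK1 and 1 each in IKBKB and IKBKG. TNFRSF1A, NFKBIE, RELA and TRADD had 0. The median of the 10 was 1, beside 2 for all tested coding genes, of which 73.9% had at least 1. The genes without the pentamer included both the lowest ratio, that of TNFRSF1A, and the highest, that of TRADD.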

How the data were processed

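RNA was taken up in TRIzol and made into KAPA mRNA HyperPrep libraries, as the labels' protocols state, 1 library for each group; no sample was left out. The authors deposited raw read counts per gene, not normalized, as the whole-number values show. Trimmomatic 0.38, HISAT2 2.1.0, featureCounts 1.6.0 and GRCh38 come from the submitters' processing notes. For the annotation release, the strand setting and multi-mapping reads, nothing is given in the sources used here.

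Of 58884 gene IDs, 58472 had a symbol in the symbol table and 58611 were in GENCODE 29, which gave coordinates, exon lengths and 3′ regions (principal transcript). The libraries were scaled with TMM factors over all genes (edgeR 4.0.16, R 4.3.3), giving effective sizes of 21281300 for DMSO and 15873737 for THZ1. Intervals of ratios are exact Clopper-Pearson intervals of the THZ1 share of both counts; differences between 2 genes are conditional odds ratios with exact intervals; levels have exact Poisson intervals. Genes with 30 or more counts in a library were tested, and lower or higher means at least 2-fold with an interval excluding no change. The labels name no molecular identifiers, so reads may include PCR copies, and intervals and floors (3 counts) cover counting error only. Python 3.11.15 and scipy 1.17.1 were used.

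The 10 genes and the lists were chosen with earlier results of these data known, and the pairs with genes outside the 10 after their values were seen. Named were the 10 genes, all tested Rel, IkappaB and TNF receptor genes, up to 4 genes of each other list with ratios furthest from 0 at 100 or more counts, chromosomal neighbours, overlapping genes and copies. Other genes named complete a group and were chosen after their values were seen (TRAF3, BIRC2, CHUK, MAP3K7, TAB2, TAB3, CYLD, IRAK1, IL1R1 and ligands). Alternatives were 5 other scalings (total counts, DESeq2 1.42.0 size factors, upper quartile, mitochondrial mRNAs and, chosen after seeing the data, TMM over tested genes), count minimums of 1 and 100, coding genes only, 5 counts added, thinning and a stricter bound.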

Additional observations from a re-analysis of the deposited data

How the results depend on the processing

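The number of lower genes among the 10 lay between 6 and 10 over the 11 alternatives, against 8, and the number of higher genes was 0 in each. It was 6 with TMM over tested genes, with the upper quartile and with the interval bound itself at least 2-fold, and 7 with 5 counts added (TNFAIP3 at −0.95). A count minimum of 100 leaves NFKBIE, IKBKG and TRADD out and gave 7. IKBKB and TNFAIP3 lost their calls with the upper quartile (−0.51 and −0.50). The median of the 10 moved from −1.68 to −2.09 with total counts, −3.26 with mitochondrial mRNAs, −1.14 with the upper quartile and −1.57 with TMM over tested genes. These shifts follow from the scaling itself. Over all tested genes, 2942 were lower, against 10000 with mitochondrial mRNAs and 1761 with the upper quartile, and 936 were higher, against 88, 368 and 3037 with mitochondrial mRNAs, total counts and the upper quartile, 1846 and 607 with count minimums of 1 and 100, 599 among coding genes and 498 with the stricter bound. After thinning, 37 pairs of the 10 genes differed, as before it. No paired analysis was possible because each group had 1 library. NFKBIE, with 7 counts in THZ1, and TRADD and IKBKG, with fewer than 100 counts in each library, are limited by depth, and the spread between cultures was not measured.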
